A study of Mus musculus with 8 samples.

Results

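The 44 genes described here encode the enzymes by which mitochondria burn pyruvate and fatty acids, and were taken from the cochlear RNA seq of Opa1+/- and WT mice by their gene symbols. They make up 44 of the 47628 gene entries listed in the count files, and all 44 passed the count minimum of the test, a mean normalized count over 10. By role, 16 members handle pyruvate, 12 are enzymes of the citric acid cycle and 16 carry out beta-oxidation.

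Whole cochleae of untreated mice were sequenced, 4 of them WT, with the animal numbers 4, 5, 6 and 8, and 4 of them Opa1+/-, with the numbers 2 and 7 and a pair of 3-digit numbers, here called the third and the fourth Opa1+/- mouse. The genetic background combined C57BL/6 J with 129 Sv/Pas, and the age was 21 days according to the methods of the study, which elsewhere gives 1 month. Values per mouse are listed in this order, WT mice 4, 5, 6 and 8 and then Opa1+/- mice 2, 7, the third and the fourth. Opa1+/- mice carry the knock-in delTTAG deletion on 1 of their 2 Opa1 alleles in every cell, and the WT mice were littermates. OPA1 is a dynamin-related GTPase of the inner mitochondrial membrane that fuses mitochondria and shapes cristae. The sample labels give each sample an animal number, so p-values measure the spread between mice, and the cochlea was sequenced as a whole, so that fewer cells of a type and less RNA per cell cannot be told apart.

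Pyruvate enters the mitochondrion through a carrier made of MPC1 and MPC2 and is oxidized to acetyl-CoA by the pyruvate dehydrogenase complex, which kinases switch off and phosphatases switch on. The citric acid cycle oxidizes the acetyl group and hands its electrons to the respiratory chain. Long-chain fatty acids enter as carnitine esters, are shortened in the beta-oxidation spiral to acetyl-CoA, and pass electrons through the electron transfer flavoprotein (ETF) to the same chain. Brown adipocytes, heart and muscle are known for high levels of the fatty acid enzymes, whereas neurons rely mainly on glucose and lactate.

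Library totals ranged from 15978051 to 20828030 counts on named genes, and no pair of libraries agreed within sampling noise. Opa1 was 118.7, 125.9, 111.7 and 122.4 CPM (read counts scaled to a common library size, with TMM factors) among WT mice, and 63.5, 68.4, 60.4 and 70.02 CPM among Opa1+/- mice. The groups did not overlap, and Opa1 was lower by a log2 fold change of -0.87 (SE 0.068, adjusted p = 0.00515, edgeR's quasi-likelihood test; exact permutation test over 70 arrangements, two-sided, p = 0.0286, the smallest it can give). The cochlear identity of the samples was checked on 10 hair cell markers, all of which were tested, with a summed level of 109–175 CPM in WT mice and 132–150 CPM in Opa1+/- animals.

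None of the 44 members passed an adjusted p of 0.05 by edgeR, at a background of 0.0258% of the 19366 genes tested, and the lowest adjusted p was 0.728. At an unadjusted p under 0.05, 3 members were higher in Opa1+/- mice (background 3.51%) and 0 were lower (background 3.22%): Etfb, Idh3b and Eci1. DESeq2's Wald test also called 0 members at an adjusted p of 0.05, at a background of 0.129%, and 4 at an unadjusted p under 0.05, all higher in Opa1+/- mice, at a background of 5.8% in either direction. In 1 member, Mdh2, the groups did not overlap, with the Opa1+/- mice higher (background 1.98%). The log2 fold change was positive in 34 of the 44 members (77.3%) against 50.1% of all genes tested, and its median was 0.12 against 0.0004 over all genes.

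**Figure D1:**
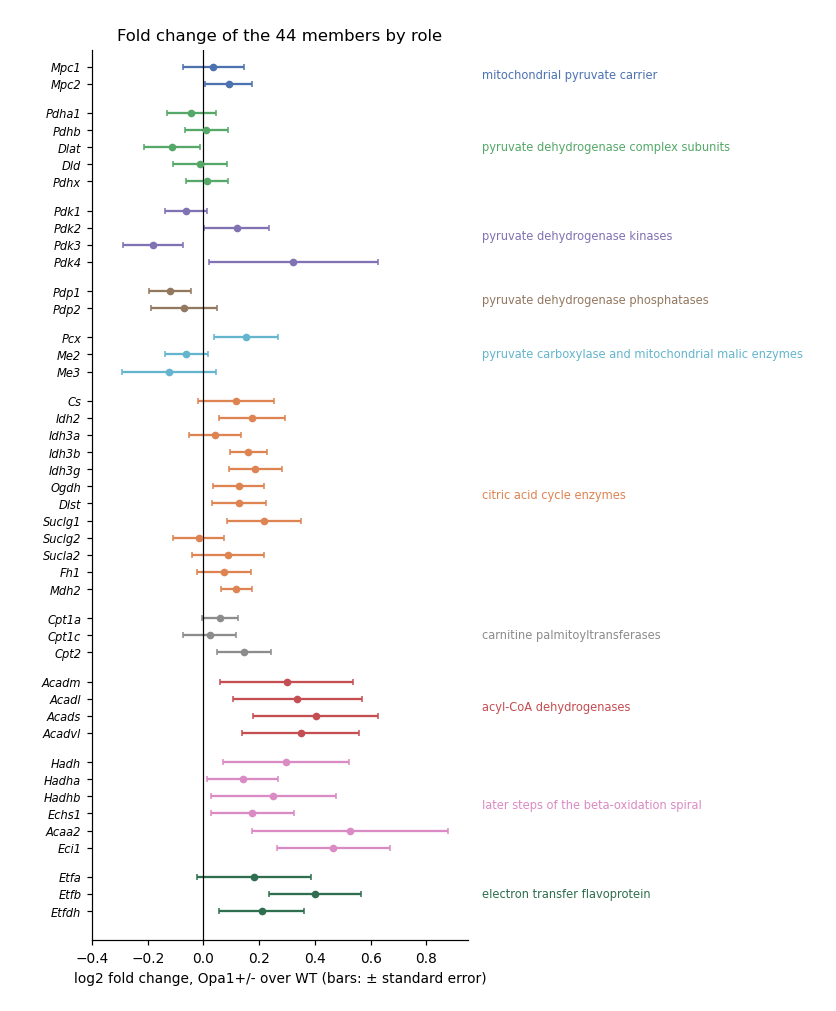
Log2 fold change (Opa1+/- over WT, x axis) of each of the 44 members, grouped by role, with bars of ± 1 standard error of the edgeR fit. The 16 beta-oxidation members all lie to the right of 0, from 0.02 to 0.53, with the longest bars in the acyl-CoA dehydrogenases and the later steps, while the pyruvate members lie on both sides of 0.

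The level of the members per transcript length is set out first, because read counts grow with length and counts of different genes can be compared only per kb. On the scale of CPM per kb of the principal transcript, the malate dehydrogenase of the cycle, Mdh2, had the highest level (197 ± 6.21 in WT and 213 ± 6.51 in Opa1+/-, SD, n = 4). It was followed by Idh3g (104 ± 13.1 in WT, 118 ± 7.31 in Opa1+/-) and Idh3b (101 ± 7.003 and 113 ± 4.37), subunits of the NAD-dependent isocitrate dehydrogenase, whose ranges overlapped each other. Etfb came next in Opa1+/- mice, with 105 ± 6.46 CPM per kb, but with 79.5 ± 21.8 CPM per kb in WT mice it stood below Mpc1 (84.4) and Pdha1 (83.0) there, with overlapping spreads. At the other end, the phosphatase subunit Pdp2 had 1.22 ± 0.149 and 1.17 ± 0.065 CPM per kb, and the malic enzyme Me3 had 4.23 ± 1.04 and 3.87 ± 0.61. By group, the median level in WT mice was 63.5 CPM per kb for the 12 enzymes of the cycle, 37.2 CPM per kb for the 16 of beta-oxidation and 13.5 CPM per kb for the 16 pyruvate members. The SD among WT mice had a median of 35.7% of the mean in the beta-oxidation members, against 13.4% in the cycle and 12.2% in the pyruvate members, and Acadm, at 60.9 ± 26.2 in WT and 74.8 ± 6.995 CPM per kb in Opa1+/-, is an example.

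**Figure D2:**
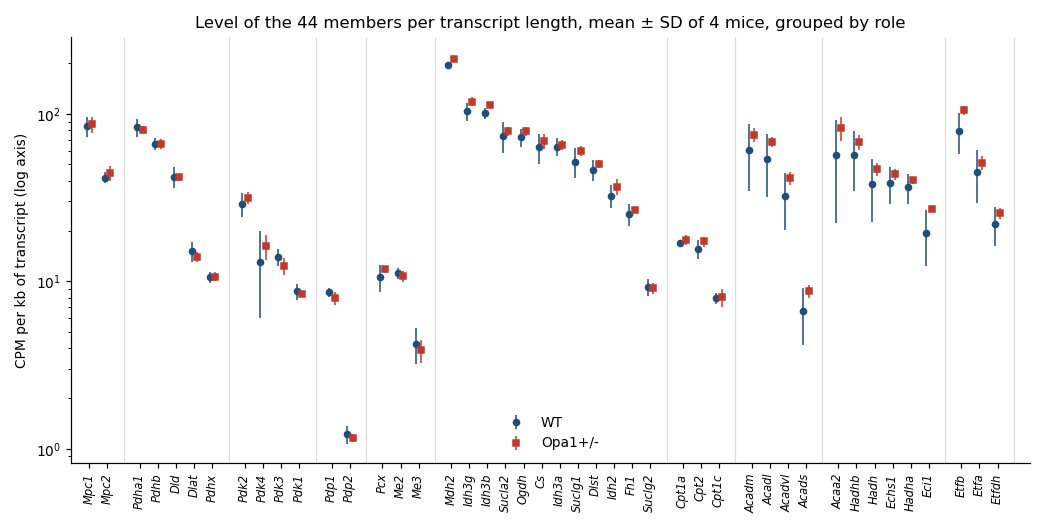
Level of the 44 members in CPM per kb of transcript (log axis), grouped by role and ordered by level, as mean ± SD of 4 mice (blue circles WT, red squares Opa1+/-). Mdh2 stands highest at about 205 and Pdp2 lowest at about 1.2, and the widest WT bars are those of Acaa2 and Pdk4, followed by those of the acyl-CoA dehydrogenases Acadm and Acadl.

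The stretches of reference sequence below lie in front of beta-oxidation genes and are shown as examples: Etfb, the member with the lowest p of that pathway, Acadl, the member most closely tied to the marker level described below, and the gap between Hadha and Hadhb, which encode the 2 subunits of the mitochondrial trifunctional protein and are read away from each other. They come from the RefSeq promoter table (GRCm38.p6), 5′ to 3′ on the strand named, and capitals mark matches on either strand to the CCAAT box (CCAAT), the GC box (GGGCGG), and the NRF1 element (GCGCA and GCGC with 1 base between them). The first is the plus strand at chr7:43443922-43444071, the second the minus strand at chr1:66863310-66863459, and the third the plus strand at chr5:30155163-30155247.
Etfb: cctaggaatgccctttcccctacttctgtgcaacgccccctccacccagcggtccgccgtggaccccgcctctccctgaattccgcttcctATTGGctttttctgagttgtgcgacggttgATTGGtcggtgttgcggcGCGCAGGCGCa
Acadl: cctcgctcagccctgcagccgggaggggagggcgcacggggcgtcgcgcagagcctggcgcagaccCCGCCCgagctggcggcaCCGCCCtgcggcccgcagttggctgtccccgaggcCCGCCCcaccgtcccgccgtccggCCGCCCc
Hadha and Hadhb: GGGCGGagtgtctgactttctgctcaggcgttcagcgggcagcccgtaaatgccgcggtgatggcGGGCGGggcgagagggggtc
The stretch before Etfb holds 2 CCAAT boxes and 1 NRF1 element, that before Acadl 4 GC boxes, and the 85 bases between Hadha and Hadhb 2 GC boxes. Over the 40 members with an entry in that table, in windows from 250 bases before to 50 after the start, 72.5% held a GC box against 38.2% of all genes with an entry. A CCAAT box was found in 55% of members (all genes 41.1%), an NRF1 element in 10% (all genes 5.19%; Dld, Etfb, Etfdh and Sucla2) and a CRE (TGACGTCA) in 5% (all genes 2.03%; Mdh2 and Ogdh). No member held an exact ERR element (TNAAGGTCA, 1.43% of all genes) or PPAR element (AGGTCA repeated after 1 base, 0.0481%) in this window, which says only that these letters are not there. A match is a description of the sequence and not a binding site.

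The pyruvate members showed no common direction. Of the 16, 7 had a positive and 9 a negative log2 fold change, the median was -0.03, and the sum of their levels was 927, 1133, 954 and 883 CPM in WT mice and 964, 1029, 908 and 1011 CPM in Opa1+/- animals. Within the carrier, Mpc1 was 84.8, 94.1, 75.04 and 69.3 CPM in WT mice and 80.2, 87.7, 71.9 and 91.7 CPM in Opa1+/- animals, so that the groups overlapped throughout (log2 fold change 0.04, SE 0.11, edgeR adjusted p = 0.960). Its partner Mpc2 was 43.1, 45.1, 44.5 and 38.1 CPM in WT mice and 44.1, 40.6, 45.4 and 51.8 CPM in Opa1+/- animals (0.09, SE 0.085, adjusted p = 0.852).

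Among the 5 subunits of the pyruvate dehydrogenase complex the log2 fold changes lay between -0.11 and 0.01, and the standard errors between 0.075 and 0.099 on the log2 scale. The subunit with the highest level per length, Pdha1 on chromosome X, which encodes the catalytic E1 alpha subunit, was 231, 278, 225 and 211 CPM in WT mice and 233, 242, 214 and 228 CPM in Opa1+/- animals (-0.04, SE 0.090, adjusted p = 0.943). Dlat, the acetyltransferase core, had the lowest p of the 5 with 52.3, 71.7, 63.6 and 56.4 CPM in WT mice and 58.5, 58.7, 50.8 and 57.6 CPM in Opa1+/- animals (-0.11, SE 0.099, adjusted p = 0.843). In all 5 subunits WT mouse 5 had the highest level of the 8 mice. Pdhb, Dld and Pdhx had log2 fold changes of 0.01, -0.01 and 0.01.

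The 4 kinases that inactivate the complex differed in direction. Pdk2 was the most abundant per length, with 41.7–49.8% of the summed kinase level per kb over the 8 mice, and its level was 55.02, 74.3, 75.1 and 56.7 CPM in WT mice and 65.1, 77.9, 67.0 and 73.5 CPM in Opa1+/- animals (0.12, SE 0.12, adjusted p = 0.859). Pdk3, which had the lowest p of the 4, was 26.1, 28.0, 34.4 and 29.8 CPM in WT mice and 22.5, 27.9, 24.8 and 29.1 CPM in Opa1+/- animals (-0.18, SE 0.11, adjusted p = 0.772). Pdk4, the kinase that fasting and fatty acids are known to raise, had the widest spread of the kinases, with 41.3, 80.5, 29.2 and 29.8 CPM in WT mice and 54.4, 68.6, 45.1 and 58.2 CPM in Opa1+/- animals, and is described although its values were already known. WT mouse 5 was above every Opa1+/- mouse and WT mice 4, 6 and 8 were below every one of them (0.32, SE 0.30, adjusted p = 0.854). The share of Pdk4 in the kinases per kb ranged from 12.5% in WT mouse 6 to 29.2% in WT mouse 5. Pdk1 differed by -0.06 on the log2 scale (SE 0.075).

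Of the phosphatases that reactivate the complex, Pdp1 was 35.8, 33.5, 38.5 and 37.4 CPM in WT mice and 30.3, 36.4, 31.7 and 35.0 CPM in Opa1+/- animals (-0.12, SE 0.075, adjusted p = 0.783). Pdp2 was read at 6.02–7.96 CPM in WT mice and 6.31–7.15 CPM in Opa1+/- animals (-0.07, SE 0.12). Pyruvate carboxylase, encoded by Pcx, makes oxaloacetate from pyruvate and was 39.2, 54.8, 41.0 and 37.3 CPM in WT mice and 46.1, 50.6, 49.1 and 45.6 CPM in Opa1+/- animals (0.15, SE 0.11, adjusted p = 0.818). The mitochondrial malic enzyme Me2, with a level per length close to that of Pcx, was 29.5, 27.1, 32.5 and 28.9 CPM in WT mice and 25.1, 29.2, 28.8 and 29.8 CPM in Opa1+/- animals (-0.06, SE 0.078, adjusted p = 0.901). In each of these genes the groups overlapped.

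In the citric acid cycle 11 of 12 members had a positive log2 fold change, with a median of 0.12 and a range from -0.02 to 0.22. The sum of the 12 was 1680, 2046, 1702 and 1572 CPM in WT (mean 1750 ± 205, SD, n = 4) and 1892, 2034, 1804 and 1890 CPM in the Opa1+/- mice (1905 ± 95.6). WT mouse 5 again stood highest and the other WT mice stood below all 4 Opa1+/- mice.

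Mdh2 (chromosome 5, 135778480 to 135790398, GRCm38) encodes the enzyme that regenerates oxaloacetate. It was 286, 298, 285 and 276 CPM in WT mice and 301, 322, 306 and 314 CPM in Opa1+/- animals. Every Opa1+/- mouse was above every WT mouse, and the difference was small, with a log2 fold change of 0.12 (SE 0.055, unadjusted p = 0.0586, edgeR adjusted p = 0.749). Mdh2 also had the smallest spread of all members within the genotypes, an SD of 0.045 on the log2 scale.

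Idh3b (chromosome 2, 130279309 to 130284547) encodes a regulatory subunit of the NAD-dependent isocitrate dehydrogenase. It was 160, 177, 164 and 150 CPM in WT mice and 180, 192, 175 and 182 CPM in Opa1+/- animals, so that only WT mouse 5 and the third Opa1+/- mouse overlapped (0.16, SE 0.066, unadjusted p = 0.0373, adjusted p = 0.728). The other regulatory subunit, Idh3g, had a log2 fold change of 0.19 (SE 0.094), and the catalytic subunit Idh3a 0.04 (SE 0.093). The ratio of Idh3g to Idh3b per kb lay between 0.941 and 1.09 in the 8 mice, and the ratio of Idh3a to Idh3b between 0.556 and 0.677.

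Of the remaining enzymes of the cycle, citrate synthase (Cs), which joins acetyl-CoA to oxaloacetate, had a log2 fold change of 0.12 (SE 0.14), the NADP-dependent Idh2 0.17 (SE 0.12), and fumarase (Fh1) 0.07 (SE 0.098). The 2-oxoglutarate dehydrogenase subunits Ogdh and Dlst both had 0.13 (SE 0.091 and 0.097). Succinyl-CoA ligase is built from the common subunit Suclg1 (0.22, SE 0.13) and either the ADP-forming Sucla2 (0.09, SE 0.13) or the GTP-linked Suclg2 (-0.02, SE 0.091). Sucla2 was the dominant partner, with 6.28–9.65 times the level of Suclg2 per kb, lowest in WT mouse 6 and highest in WT mouse 5, and the groups overlapped.

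The beta-oxidation members had the highest median of the 3 groups, 0.27 on the log2 scale, and all 16 log2 fold changes were positive. The smallest of these were those of Cpt1a and Cpt1c. The 3 carnitine palmitoyltransferases, which load fatty acids onto carnitine and take them off inside the mitochondrion, had log2 fold changes of 0.06 (Cpt1a), 0.02 (Cpt1c) and 0.15 (Cpt2). Cpt1a, the rate-limiting isoform with the highest level per length, was 70.5, 72.2, 71.8 and 78.0 CPM in WT mice and 70.7, 82.8, 74.1 and 77.1 CPM in Opa1+/- animals (SE 0.064, adjusted p = 0.882). Cpt2 was 33.9, 44.2, 37.0 and 33.3 CPM in WT mice and 38.3, 43.6, 39.1 and 43.4 CPM in Opa1+/- animals (SE 0.096, adjusted p = 0.790). In Cpt1a and Cpt1c, WT mouse 5 was not among the extremes, unlike in the enzymes that follow. In Cpt2 that mouse was the highest, and without it the log2 fold change was 0.24 (SE 0.075, edgeR unadjusted p = 0.0108). Cpt1b, an isoform outside the members, had 0.25 (SE 0.18) with all mice.

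The other 13 members, from the acyl-CoA dehydrogenases to ETF, had log2 fold changes from 0.14 to 0.53 and a median of 0.30. Their standard errors lay between 0.13 and 0.35. Their sum was 967, 1511, 751 and 755 CPM in WT mice and 1267, 1310, 1095 and 1215 CPM in Opa1+/- animals. The highest WT value was 2.01 times the lowest, against 1.197 times among Opa1+/- mice. The median SD of these 13 members within the genotypes was 0.35 on the log2 scale, against 0.125 over the 12636 genes with a mean level in the range of the members, and all 13 lay above the 75th percentile of those genes (0.180).

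Acaa2 encodes the thiolase of the last step of the spiral and had the largest fold change of all members. It was 88.9, 160.4, 48.0 and 49.3 CPM in WT mice and 139.2, 144.3, 101.6 and 114.8 CPM in Opa1+/- animals, with a log2 fold change of 0.53 (SE 0.35, unadjusted p = 0.167, adjusted p = 0.790). WT mouse 5 was above all Opa1+/- mice and the other 3 WT mice were below all of them. Eci1 (chromosome 17, 24426641 to 24439348), the isomerase that prepares unsaturated fatty acids for the spiral, was 20.95, 33.8, 17.9 and 15.9 CPM in WT mice and 30.2, 30.0, 30.6 and 31.7 CPM in Opa1+/- animals (0.47, SE 0.20, unadjusted p = 0.0455, adjusted p = 0.732). The same arrangement of mice was seen, with a difference of only 1.06-fold between the highest and lowest Opa1+/- mouse.

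Of the acyl-CoA dehydrogenases, which open the spiral for chains of different length, Acads for short chains had the lowest p, with 12.3, 18.8, 10.5 and 7.98 CPM in WT mice and 18.5, 16.04, 14.9 and 16.2 CPM in Opa1+/- animals (0.40, SE 0.22, adjusted p = 0.765). Acadm for medium chains had the highest level per length, with 113, 203, 88.7 and 93.1 CPM in WT mice and 165, 163, 134 and 150 CPM in Opa1+/- animals (0.30, SE 0.24, adjusted p = 0.830). Acadl for long chains (chromosome 1, 66830839 to 66863277) was 103, 162, 68.0 and 77.9 CPM in WT mice and 129, 136, 117 and 136 CPM in Opa1+/- animals (0.34, SE 0.23, adjusted p = 0.797). In all of them WT mouse 5 was highest of the 8 mice. Acadvl, for very long chains, had a log2 fold change of 0.35 (SE 0.21).

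The trifunctional protein subunits Hadha and Hadhb had log2 fold changes of 0.14 (SE 0.13) and 0.25 (SE 0.22), the dehydrogenase Hadh 0.30 (SE 0.23) and the hydratase Echs1 0.18 (SE 0.15). The level of Hadha per kb was 0.518–0.742 times that of Hadhb over the 8 mice, lowest in WT mouse 5 and highest in WT mouse 6. The ETF subunit gene Etfb (chromosome 7, 43444083 to 43457800), whose upstream sequence is printed above, was 74.9, 96.6, 59.7 and 52.7 CPM in WT mice and 102, 91.6, 89.2 and 92.0 CPM in Opa1+/- animals (0.40, SE 0.16, unadjusted p = 0.0364, adjusted p = 0.728). Here Opa1+/- mouse 2 was highest and WT mouse 5 second. Its partner Etfa had a log2 fold change of 0.18 (SE 0.21), and Etfdh, which passes the electrons on to ubiquinone, 0.21 (SE 0.15).

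**Figure D3:**
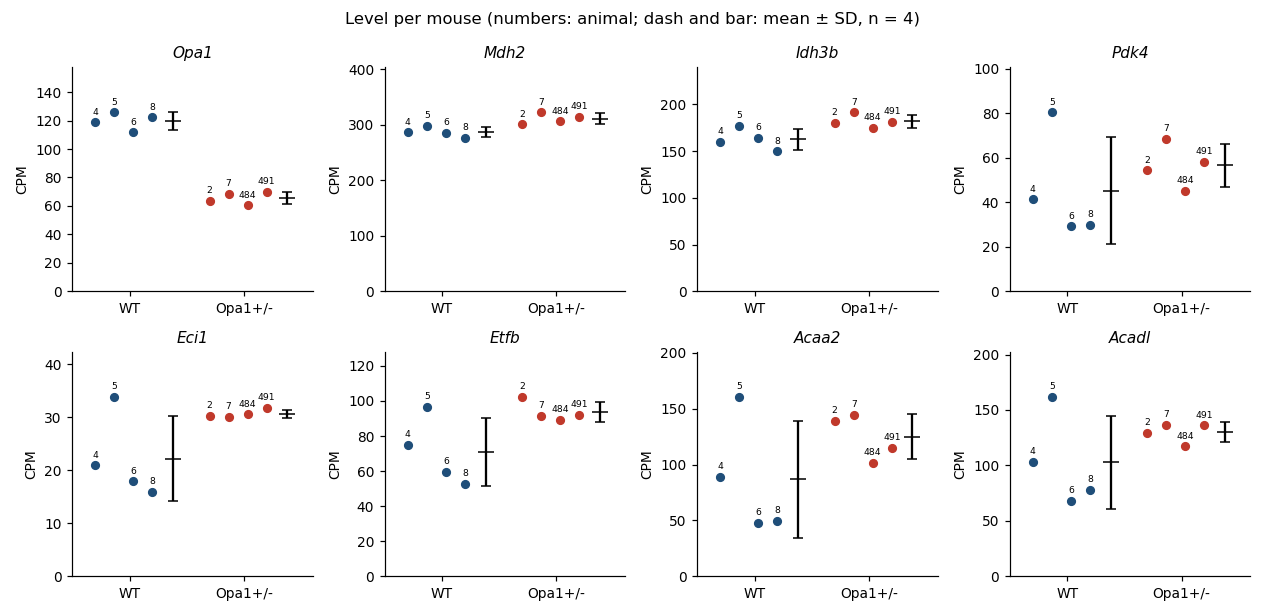
Level in CPM (y axis, from 0) of Opa1 and 7 members in each mouse, with animal numbers above the points and the mean ± SD of 4 mice beside them (blue WT, red Opa1+/-). The groups do not overlap in Opa1. Nor do they in Mdh2, by a small gap (298 CPM in the highest WT and 301 CPM in the lowest Opa1+/- mouse, edgeR adjusted p = 0.749). Such a separation, higher in Opa1+/- mice, held for 1.98% of all genes. In Eci1, Acaa2, Acadl and Pdk4, WT mouse 5 lies above and WT mice 4, 6 and 8 lie below the Opa1+/- mice.

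The number of members at an unadjusted p under 0.05 depended on single mice, most of all on WT mouse 5. Without it, 24 of the 44 members were higher in Opa1+/- mice at an unadjusted p under 0.05 (background 3.37%), among them 13 of the 13 members from the acyl-CoA dehydrogenases to ETF and 8 of the 12 of the citric acid cycle, and 2 of the 16 pyruvate members (Pdk4 and Pcx). The median log2 fold change of the 13 was then 0.62 (range 0.28 to 1.01). Still 0 members passed an adjusted p of 0.05, the lowest being 0.116 for Eci1 (edgeR). In 23 members the 4 Opa1+/- mice were all above WT mice 4, 6 and 8 (background 3.7%). Without WT mouse 4, 1 member was higher at an unadjusted p under 0.05 (background 6.03%), and without the third Opa1+/- mouse 2 were (background 2.93%). Without WT mouse 6 (background 3.96%) or 8 (1.76%) the count was 0. Leaving out Opa1+/- mouse 2 (background 3.48%), 7 (3.61%) or the fourth (2.39%) also gave 0. These small counts lie near the shares beside them, and 0 members were lower in any of these fits.

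The mice at both ends of the order in most of these members were also those at the ends of another cell type's marker level, while the Opa1+/- mice between them stood in another order. The summed level of 8 adipocyte genes (Adipoq, Plin1, Cfd, Retn, Lep, Fabp4, Cidec and Ucp1, all 8 tested and none at 0 in any mouse) was 34.4 CPM in WT mouse 6, 107 in WT mouse 8, 368 in WT mouse 4, 551 in the third Opa1+/- mouse, 693 and 786 in Opa1+/- mice 7 and 2, 813 in the fourth, and 917 in WT mouse 5. It varied 26.7-fold among WT and 1.48-fold among Opa1+/- mice. All 8 genes had a positive log2 fold change between the genotypes, with a median of 0.82, and 0 of them passed the adjusted threshold.

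Fabp4, the fatty acid binding protein of adipocytes, gave most of that sum, from 22.3 CPM in WT mouse 6 to 535 CPM in WT mouse 5. Ucp1, the uncoupling protein that defines brown and beige adipocytes, was 69.1, 192, 1.08 and 6.32 CPM in WT mice and 163, 174, 88.5 and 161 CPM in Opa1+/- animals. The WT mice thus held both the lowest and the highest value of Ucp1.

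In 13 of the 13 members from the acyl-CoA dehydrogenases to ETF, WT mice 6 and 8 were the 2 lowest of the 8 mice, which held for 7.57% of all genes tested. In 12 of the 13, all but Etfb, WT mouse 5 was in addition the highest (all genes 1.04%). Among all 44 members these counts were 21 and 18, and among the 16 pyruvate members 1 and 1, the 1 being Pdk4. In the cycle they were 7 and 5 of 12.

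A model with the genotype and the log2 marker sum gave 22 of the 44 members a positive slope on the marker level at an unadjusted p under 0.05 (background 6.77%) and 1, Me3, a negative slope (background 6.59%). All 13 members from the acyl-CoA dehydrogenases to ETF were among the 22. The marker level was chosen as a covariate after the data were seen, so the slope p-values are not independent of that choice. At an adjusted p of 0.05, the slopes of Acadl (0.26 log2 units per doubling of the marker sum, SE 0.032, edgeR adjusted p = 0.0149) and Acaa2 (0.38, SE 0.057, adjusted p = 0.0436) passed (background 0.217%). The slope of Pdk4 was 0.31 (SE 0.060, adjusted p = 0.107), and those of Cpt1a and Cpt1c were -0.01 (SE 0.026) and -0.04 (SE 0.036).

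In the same model the genotype difference of the 13 members had a median of -0.06 (range -0.18 to 0.15) in place of 0.30, and that of all 44 members -0.03 in place of 0.12, with 0 members at an unadjusted p under 0.05 (background 7.85%). The log2 fold change of Acaa2 was -0.03 (SE 0.18) in place of 0.53, that of Acadl -0.08 (SE 0.10) in place of 0.34, and that of Pdk4 -0.15 (SE 0.19) in place of 0.32. Eci1 and Etfb retained 0.15 (SE 0.15) and 0.13 (SE 0.12). Idh3b and Mdh2 differed less between the models, with 0.11 (SE 0.080) and 0.09 (SE 0.070). The marker level itself differed between the genotypes in the mean, with 357 ± 400 CPM in WT mice against 711 ± 118 CPM in Opa1+/- animals (SD, n = 4), so that the model divides a shared difference between both terms. Whether RNA of adipocytes set the level of these members was not tested.

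**Figure D4:**
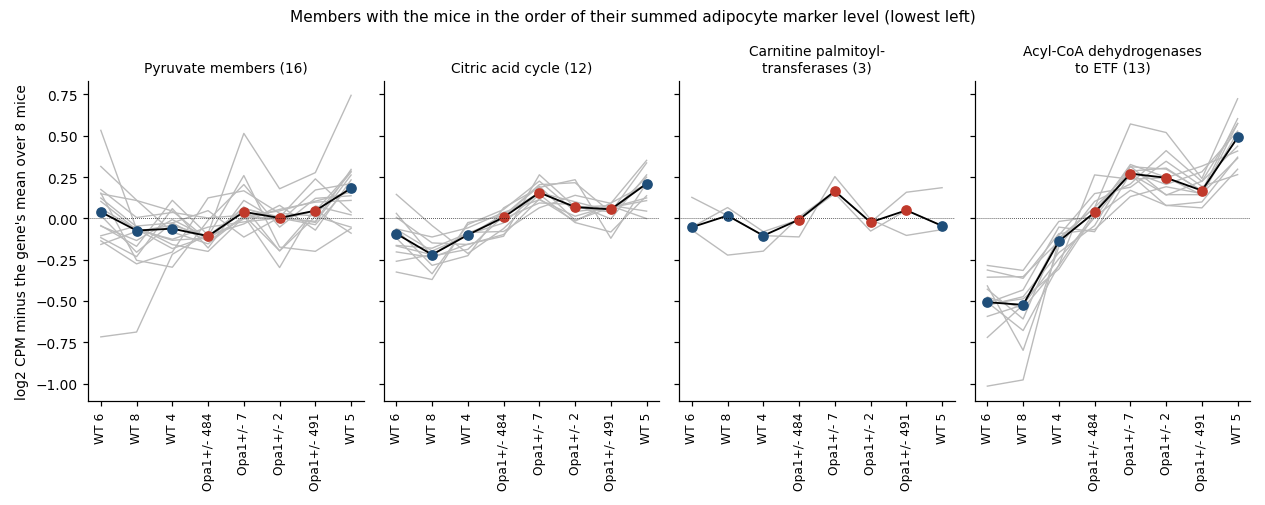
Log2 CPM of each member minus its own mean over 8 mice (grey lines), with the median of the group as points (blue WT, red Opa1+/-), the mice being ordered from left to right by their summed adipocyte marker level. The 13 members from the acyl-CoA dehydrogenases to ETF are lowest in WT mice 6 and 8 and, in all but Etfb, highest in WT mouse 5, while the carnitine palmitoyltransferases and most pyruvate members stay near 0.

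**Figure D5:**
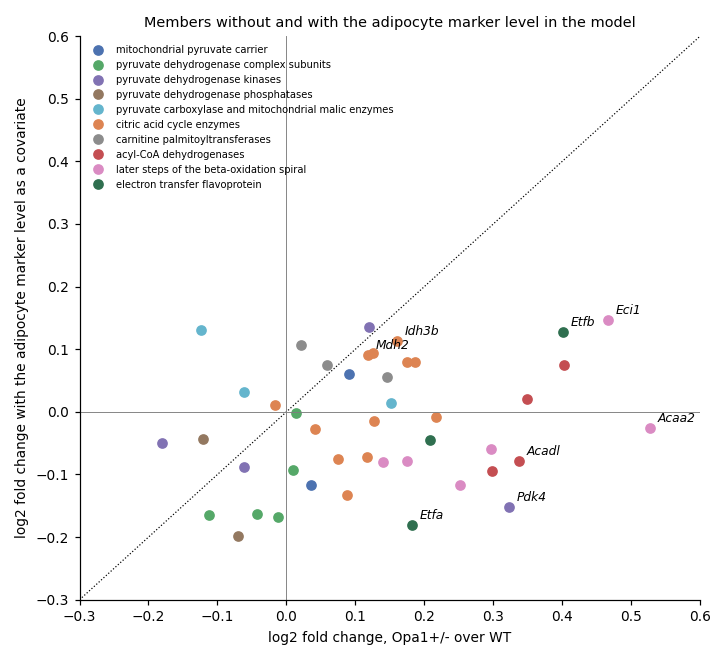
Log2 fold change of each member without (x axis) and with (y axis) the adipocyte marker level in the model, coloured by role, with a dotted line where both are equal. The beta-oxidation members at the right of the plot lie between -0.18 and 0.15 on the y axis, and Idh3b and Mdh2 lie closer to the dotted line.

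Other marker levels also varied between the mice. The summed level of 9 erythroid genes was 7749–21480 CPM in WT mice and 15080–25070 CPM in Opa1+/- animals, and 0 of the 44 members had a slope on it at an unadjusted p under 0.05 (background 12.5%). With it in the model, the median log2 fold change of the members was 0.10 in place of 0.12, that of the 16 beta-oxidation members 0.14 in place of 0.27, and that of the 13 from the acyl-CoA dehydrogenases to ETF 0.18 in place of 0.30. The summed level of 12 skeletal muscle genes was 357–2720 CPM in WT mice and 173–1351 CPM in Opa1+/- animals. On it 2 members showed a slope (Pdhb and Me3, background 7.59%). With it in the model, the median was 0.12 for the members, 0.23 for the 16 and 0.26 for the 13. The part of stria vascularis (697–1335 CPM in WT, 870–1133 CPM in Opa1+/-) and Schwann cell markers (3411–4652 CPM in WT, 4108–5549 CPM in Opa1+/-) was not tested.

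Around the 44 members, 85 further genes of the same pathways were grouped in 9 lists, of which 84 were tested. None passed the adjusted threshold, 3 were higher in Opa1+/- mice at an unadjusted p under 0.05 (background 3.51%), and the median log2 fold change was 0.08. The 3 were Eci2, a second enoyl-CoA isomerase (0.12, SE 0.050), Acot13, a mitochondrial thioesterase whose groups did not overlap (0.15, SE 0.059), and Angptl4, a secreted inhibitor of lipoprotein lipase (0.67, SE 0.29). All 3 had adjusted p-values from 0.722 to 0.732 (edgeR).

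The 10 tested genes of a list of further PPAR targets, which besides lipid droplet and lipase genes holds the mitochondrial carriers Ucp2 and Ucp3, all had positive log2 fold changes, with a median of 0.51 and a median SD within the genotypes of 0.48. Cidea, a lipid droplet protein of brown fat, was 45.4, 100, 4.90 and 7.44 CPM in WT mice and 89.2, 76.1, 46.7 and 70.9 CPM in Opa1+/- animals, with WT mice 6, 8 and 4 lowest and WT mouse 5 highest, as in the adipocyte markers. Of the 10 PPAR and ERR factors and coactivators, 5 had positive and 5 negative log2 fold changes, with the lowest p for Rxra, the partner of the PPARs (0.12, SE 0.070, edgeR adjusted p = 0.773). Pparg, the adipocyte factor, was 9.30, 21.8, 1.55 and 3.09 CPM in WT mice and 17.4, 17.6, 12.3 and 13.4 CPM in Opa1+/- animals. Its slope on the marker level was 0.83 (SE 0.061, edgeR adjusted p = 0.000988). The list as a whole went both ways, with a median slope of -0.05. At an unadjusted p under 0.05, 2 of its slopes were positive (background 6.77%) and 3 negative (background 6.59%). The coactivator Ppargc1a was 62.2, 67.1, 89.7 and 73.1 CPM in WT mice and 60.7, 66.6, 69.99 and 68.4 CPM in Opa1+/- animals.

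The 16 genes of fatty acid uptake, activation and the carnitine shuttle, which include Fabp4 of the adipocyte list, had 11 positive log2 fold changes and a median of 0.11, and the lowest p among them was that of Crat, carnitine acetyltransferase (0.27, SE 0.13, edgeR adjusted p = 0.758). The 12 enzymes of peroxisomal beta-oxidation, which shortens very long chains outside the mitochondrion, had a median of 0.04 and a median SD within the genotypes of 0.10, and the lowest p was that of Acaa1b (0.25, SE 0.12, edgeR adjusted p = 0.749). The 10 enzymes of unsaturated and further mitochondrial fatty acid oxidation had 8 positive values and a median of 0.13. The 10 cytosolic enzymes of citrate, isocitrate and malate had 8 negative values and a median of -0.08. The 7 genes of lactate and glucose supply (median 0.02, lowest p that of Ldha, edgeR adjusted p = 0.842), the 5 of ketone body metabolism (median 0.06, lowest p that of Bdh1, adjusted p = 0.834) and the 4 of a list made of Lias, Lipt1 and Lipt2, which make or attach lipoate, and Pdpr, which encodes the regulatory subunit of pyruvate dehydrogenase phosphatase (median -0.05, lowest p that of Pdpr, adjusted p = 0.808) showed no common direction.

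Some member counts can hold reads of other genes. Hadhb shares 99.8% identity over 1428 bases with the processed pseudogene Gm13910, which was listed at a mean of 33.3 CPM, and the sum of both had a log2 fold change of 0.26 (SE 0.23). Pdhb (Gm6123), Suclg2 (Gm15163) and Mpc1 (Mpc1-ps) have copies of 97.0–99.7% identity with means of 6.97–11.7 CPM, and their summed log2 fold changes were 0.02, -0.01 and 0.04. Etfb shares 69.1% of its transcript with Gm45233 on the same strand, and Acadvl 45.0% with Dvl2 on the opposite strand, so that both values are uncertain by the reads of these neighbours.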

How the data were processed

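Cochlear RNA of 8 mice, 4 WT and 4 Opa1+/-, was measured by RNA seq. The authors prepared CORALL libraries, sequenced paired reads of 80 nucleotides, mapped them to GRCm38 with STAR and deposited 1 table of raw counts per mouse, whole numbers per gene symbol without normalization. The counting program and the use of strand are not given in the sources used here. Of the entries, 15 without a symbol (0.112–0.124% of counts) were left out.

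Genotypes came from the labels. Library sizes were counts on the 47628 named entries, scaled by TMM. Genes with a mean normalized count over 10 were tested (19366) with edgeR 4.0.16 (quasi-likelihood, Benjamini-Hochberg over all genes, adjusted p under 0.05). Standard errors were obtained from each log2 fold change and its F statistic (absolute change over the root of F). CPM per kb used the principal transcript of GENCODE vM21 (GRCm38). Copies were sought with blastn 2.17.0 (at least 95% identity over 200 bases). Counts below about 10 per gene carry wide counting error, and every member had at least 101 counts in each library. Alternatives were DESeq2 1.42.0 and its size factors, limma 3.58.1 voom, robust estimation, other library sizes and filters, an adjusted threshold of 0.1, each mouse left out, and, chosen after seeing the data, 3 marker levels as covariates. The tests were checked on simulated counts. The scripts ran in R 4.3.3 and Python 3.11.15, with matplotlib 3.10.9 for plots.

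Named genes are Opa1 and all 44 members. Levels in each mouse are given for members with an unadjusted p under 0.05 or groups that do not overlap, and for the member of each role with the lowest p or the highest level per length. Of the 9 further lists, genes with an unadjusted p under 0.05 or else the lowest p are named, except 1 gene, whose result is not reported here. Pdk4, Acadl, Acaa2, Cpt1b, Cidea, Pparg and Ppargc1a were also chosen after their values were seen. The members and all lists were chosen with earlier results of these data known. Splice variants and proteins were not analysed here.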

Additional observations from a re-analysis of the deposited data

Results flagged for a closer look

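Samples of each genotype were searched for a mouse far from the other 3, by the gap to its nearest neighbour divided by the range, in 94 groups of 4 mice (88 of them members' levels). Chance places about 1 in 20 such groups past the limit (Dixon's 95% critical value), and 6 lay past it. Cs in WT mouse 5 was 241.3 CPM against 162.3–171.6 CPM in the other WT mice, and Hadh in the same mouse was 109.2 CPM against 51.2–59.3 CPM. WT mouse 5 is also the mouse with the highest adipocyte marker level. Me3 in WT mouse 6 was 25.9 CPM against 15.8–17.1 CPM, and the same mouse had 2720 CPM of skeletal muscle markers against 357–723 CPM. Dlat in the third Opa1+/- mouse was 50.8 CPM against 57.6–58.7 CPM, and Idh3g in Opa1+/- mouse 7 was 171.6 CPM against 151.0–153.6 CPM. Neither of these last values changes a call.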

How the results depend on the processing

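The count of members past the adjusted threshold was 0 in 19 alternatives and in 3 more that were chosen after seeing the data, including an adjusted threshold of 0.1. The count at an unadjusted p under 0.05 and higher in Opa1+/- mice was 3 as reported (background 3.51%). With single mice left out it ranged from 0 to 24 (24 without WT mouse 5, background 3.37%). Without both Opa1+/- mice with 3-digit animal numbers it was 0 (background 1.46%). As a covariate, the adipocyte level gave 0 (background 3.86%), the erythroid level 0 (2.38%) and the skeletal muscle level 1 (2.94%). The median log2 fold change of the members lay between 0.07 and 0.22 with single mice left out. That of the beta-oxidation members lay between 0.16 and 0.57. With a covariate the latter was -0.036 (adipocyte level), 0.14 (erythroid level) and 0.23 (skeletal muscle level). Summed levels of the 10 roles were computed with mice left out and with other library sizes, size factors and filters. There they moved by less than their spread between mice. For voom, robust estimation, the Wald test and the covariates they were not computed.

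Of 924 member values under the alternatives, 906 kept their sign or changed it while within 1 SE of 0 in both fits, 0 passed the adjusted threshold, and 18 in 17 members changed sign with at least 1 of the 2 values over its SE. With the adipocyte level as a covariate these were Mpc1 (-0.12), Pdhb (-0.093), Pdk4 (-0.15), Dlst (-0.015), Suclg1 (-0.0087), Sucla2 (-0.13), Acadm (-0.094), Acadl (-0.079), Hadh (-0.059), Hadha (-0.080), Hadhb (-0.12), Echs1 (-0.079), Acaa2 (-0.026), Etfa (-0.18) and Etfdh (-0.045). Dld ranged from -0.065 to 0.092 with single mice left out, 0.092 being the value without WT mouse 5. Mpc2 was -0.011 without the mice with 3-digit numbers and -0.0038 with the erythroid level as a covariate. The cause of these changes was not tested. The log2 fold change of Opa1 was -0.8495 without Opa1+/- mouse 2 (edgeR adjusted p = 0.0704), -0.86 without the mice with 3-digit numbers (0.260) and -0.89 with the erythroid level as a covariate (0.0537), and lay between -0.91 and -0.83 under the others that were set out at the start.

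No paired analysis was possible because the animal numbers of the groups do not match. With 4 mice a group and a standard error up to 0.35 on the log2 scale, fold changes of the size seen in the beta-oxidation members could not be told from the spread between WT mice. The lowest count of a member in any library was 101, in Pdp2, and the share of counting error in the spread between mice was not tested.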
